A study of Mus musculus with 8 samples.

Results

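Potassium channel genes were taken as the rows of the deposited table whose symbol starts with Kcn, without Kcnj8 and Kcnj10, which left 74 of 17644 genes. They fall into 20 subfamilies by the letter or letters after Kcn, and they encode pore-forming subunits and auxiliary proteins that bind them. Their RNA was measured by CAGE, a method in which tags are read from capped 5′ ends. The tissue was brain within 1.0 mm of a cavity made by aspiration in the motor cortex of male C57BL/6NCrSlc mice aged 11 weeks. In 4 samples (no delay) the brain was removed immediately after the lesion, and in the other 4 (1 week) it was removed 1 week later. Both groups thus carry the traumatic injury, the no-delay tissue is freshly injured, and no uninjured tissue was analysed here. The series concerns the engraftment of human neurons and progranulin, and the comparison describes the host tissue beside a fresh and a 1-week-old cavity.

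Potassium channels let potassium ions cross the membrane and so set the resting potential, the length of the action potential and the rate of firing. Voltage-gated families (Kcna to Kcnd, Kcnh and Kcnq) open on depolarization, and the products of Kcnf, Kcng, Kcns and Kcnv act together with other voltage-gated subunits. Kcnj products rectify inwardly, Kcnk products (K2P channels) carry background current, and Kcnma, Kcnn and Kcnt products open with intracellular calcium or sodium. In cortex most of these genes are known from neurons, while a smaller set is known from glia and immune cells, such as Kcnk13 in microglia and Kcnj16 in astrocytes.

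Between 8278855 and 13998941 reads per library were assigned to genes, and values are CPM, the reads of a gene scaled to a common library total. A CAGE tag marks 1 end of a transcript, so CPM is not divided by gene length. Libraries are called A, B, C and D by the alphabetical order of the 6-base tag in their column names, and lists of 4 values follow that order. A letter shared by both groups stands for a shared tag, not for a pair. A further tag is the same in all no-delay columns and another in all 1-week columns, so this tag and the time after the lesion cannot be told apart. Means are given ± SD over 4 libraries. Fold changes compare 1 week with no delay on the log2(CPM + 1) scale and are given ± SE; this scale understates changes of genes with few tags. Genes are called at an adjusted p under 0.05 in limma, fitted over the 14718 genes with 1 CPM or more in at least 4 libraries. In bulk tissue, fewer cells of a type and less RNA per cell cannot be told apart.

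Cell type markers differed between the groups. Over all genes tested, 13.4% were called lower and 23.4% higher. The 13 neuron markers in the table summed to 12951 to 14405 CPM without delay and 11708 to 12878 CPM at 1 week. Of these 3 were called lower (Rbfox3, Syt1 and Gap43), 0 were called higher and the others, Slc17a7 and Camk2a among them, were not called. Microglia markers summed to 491 to 505 CPM without delay and 1748 to 2551 CPM at 1 week and astrocyte markers to 2202 to 2501 CPM without delay and 4443 to 5074 CPM at 1 week, with 8 of 8 called higher in each list. Monocyte and macrophage markers summed to 6.25 to 10.2 CPM without delay and 108 to 302 CPM at 1 week, with 3 of 3 tested called higher. Most of this sum was Lyz2, at 4.2 to 7.09 CPM without delay and 98.4 to 280 CPM at 1 week. Ccr2 and Ly6c2 did not pass the filter, with 17 and 20 reads in all at 1 week. The 3 T cell markers in the table summed to at most 0.71 CPM in any library, and Cd3g was at 0 in all no-delay libraries. All listed endothelial markers but Flt1 were called higher, as were all listed oligodendrocyte markers but Mog and Mobp. Of the precursor markers Gpr17 and Ptprz1 were called higher, and Pdgfra and Cspg4 were not called. Of the pericyte and smooth muscle markers tested, Pdgfrb, Rgs5 and Notch3 were called higher, and Acta2 and Cspg4 were not called. The part of these shifts in the results on potassium channel genes was not tested.

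At 1 week, potassium channel genes were more often called lower than higher. Of the 74 genes, 67 passed the filter and were tested. Of these 36 were called, 30 lower and 6 higher, and 31 were not. Among all genes tested 36.8% were called, 13.4% lower and 23.4% higher, against 44.8% lower and 8.96% higher among the potassium channel genes tested. In 28 of the 67 genes the 1-week libraries all lay below the no-delay libraries, where the share over all genes tested was 12.0%. The 28 include Kcna5, which passed the filter through its no-delay libraries alone. In 3 of the 67 they all lay above, where that share was 22.7%. The median log2 fold change was -0.24 over the 67 genes and 0.06 over all genes tested. The gap between these medians was -0.30, and it was -0.30 under both TMM scaling and quantile normalization.

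Most falls were small. The means of the 30 genes called lower were 15.1% to 57.7% below their no-delay means, with a median of 25.7%. An absolute log2 fold change of 1 was reached by 3 of the 36 called genes, Kcne1l and Kcnk6 upward and Kcnk2 downward. All 74 genes together took 3245 to 3528 CPM without delay and 2865 to 3112 CPM at 1 week.

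**Figure D1:**
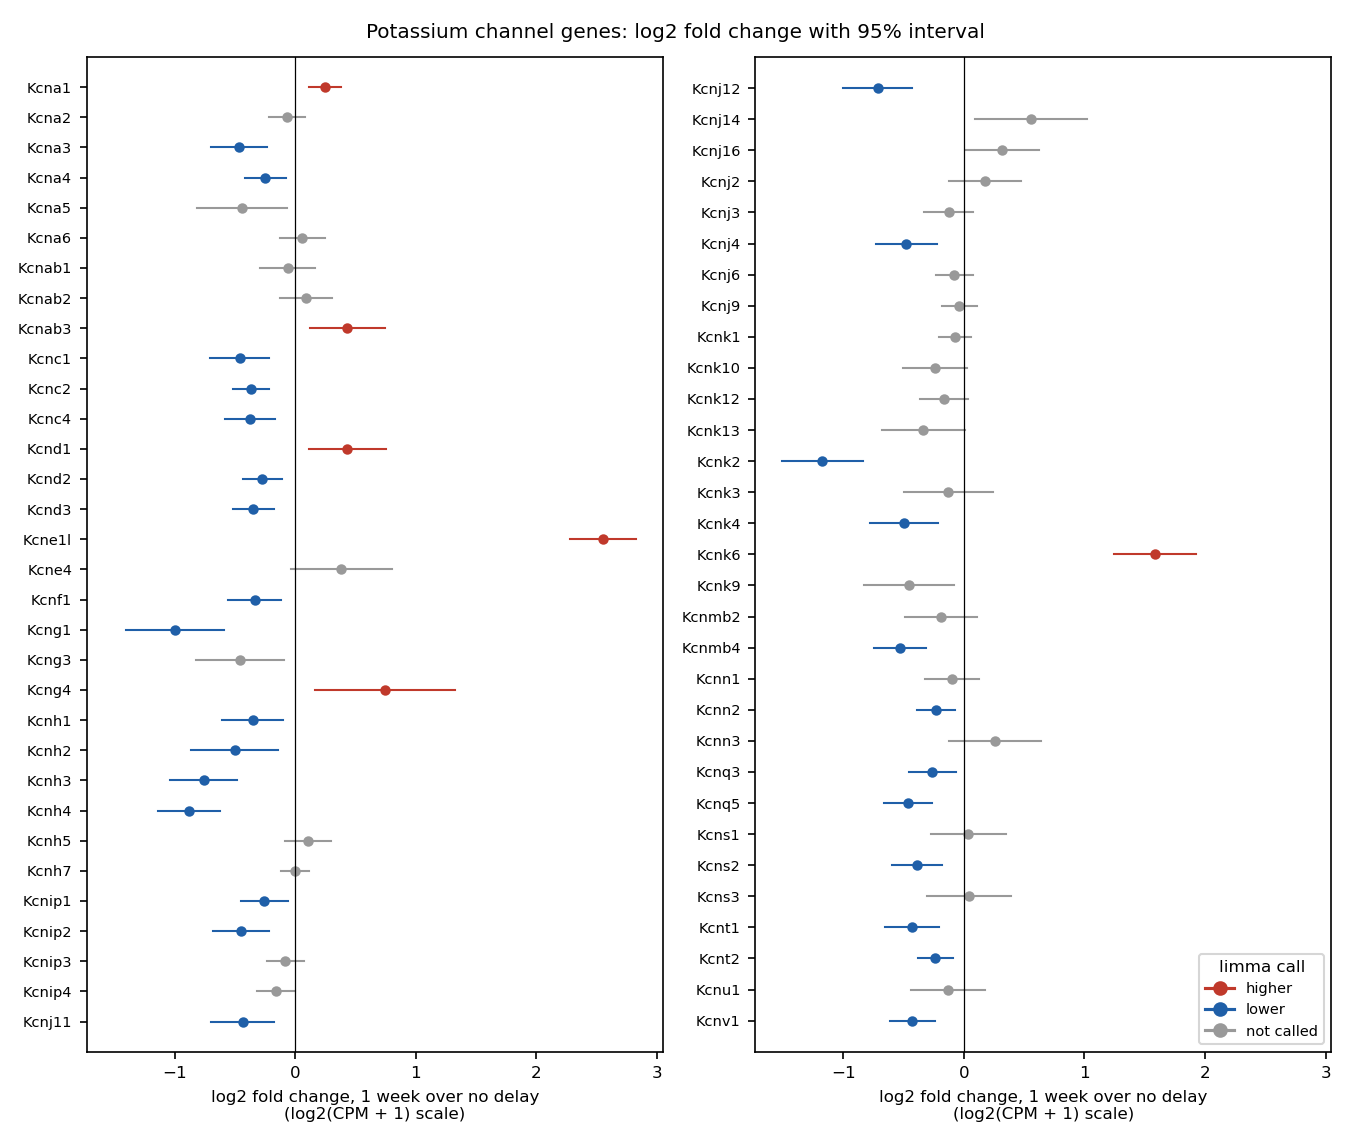
Log2 fold change (x axis, 1 week over no delay, log2(CPM + 1) scale) of 63 tested potassium channel genes in order of subfamily, with 95% intervals from limma; colours mark 28 genes called lower, 6 called higher and 29 not called. Kcne1l at 2.55 and Kcnk6 at 1.58 stand to the right of the other genes.

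The count called lower held up under other tools and scalings better than the count called higher. TMM scaling gave 35 lower and 3 higher, where 17.9% and 19.7% of all genes tested were called. Median-of-ratios scaling gave 35 lower and 3 higher, where 18.7% and 19.4% of all genes tested were called, and quantile normalization gave 40 lower and 4 higher, where 21.8% and 16.7% of all genes tested were called. On recovered whole reads, edgeR called 33 lower and 4 higher, where 17.4% and 19.9% of all genes tested were called, and DESeq2 called 33 lower and 4 higher, where 18.8% and 19.0% of all genes tested were called. Of all called genes, 63.6% were higher on CPM as deposited. This share was 52.4% under TMM, 50.9% under median-of-ratios scaling and 43.4% under quantile normalization, which moved the median of all genes to -0.04.

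Libraries of the 1-week group were not alike in the 30 genes called lower. Library B had the lowest 1-week value in 21 of them, while library D had the highest in 15 and library A in 10. This order was not counted over all genes called lower, so it is not read as a trait of potassium channel genes. Library B also had the highest 1-week sums of microglia markers, at 2551 CPM, and of monocyte and macrophage markers, at 302 CPM. Lyz2 alone took 280 CPM of the latter. The part of these markers in the order of the libraries was not tested. With 1-week library B or no-delay library B left out, 24 genes were called lower, where 9.71% and 10.8% of all genes tested were. With 1-week library D left out, 31 were called lower, where 14.6% of all genes tested were. With all libraries kept, that share of all genes tested was 13.4%. The number called higher was 3 with 1-week library C or D left out.

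Promoter sequences, from 250 bases before to 50 bases after a RefSeq transcription start on GRCm38.p6, were matched for 52 of the 74 genes. Those of Kcne1l, Kcnk2 and Kcnh4 are shown, since these changed most among the genes described library by library that have an entry. They are written 5′ to 3′, and capitals mark matches on either strand to GGGCGG, a GC box, or to GAGGAA, the core of PU.1 sites.
Kcne1l: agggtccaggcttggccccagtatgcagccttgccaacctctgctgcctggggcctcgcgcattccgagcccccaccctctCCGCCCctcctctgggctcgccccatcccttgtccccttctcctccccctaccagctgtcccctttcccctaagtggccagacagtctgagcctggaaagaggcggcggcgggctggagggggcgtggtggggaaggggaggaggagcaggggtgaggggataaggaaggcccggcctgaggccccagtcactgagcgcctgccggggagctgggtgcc
Kcnk2: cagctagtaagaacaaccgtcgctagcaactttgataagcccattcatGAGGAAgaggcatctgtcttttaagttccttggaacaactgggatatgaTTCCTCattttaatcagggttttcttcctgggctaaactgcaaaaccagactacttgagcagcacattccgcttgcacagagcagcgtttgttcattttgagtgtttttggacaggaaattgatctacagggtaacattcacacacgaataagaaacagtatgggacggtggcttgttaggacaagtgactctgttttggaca
Kcnh4: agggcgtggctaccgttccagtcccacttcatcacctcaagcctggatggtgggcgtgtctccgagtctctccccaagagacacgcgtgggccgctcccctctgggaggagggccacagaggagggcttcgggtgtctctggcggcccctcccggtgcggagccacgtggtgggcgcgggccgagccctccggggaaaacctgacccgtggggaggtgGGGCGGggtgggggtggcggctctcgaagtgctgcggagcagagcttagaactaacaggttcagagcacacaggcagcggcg
These are chrX:142306149-142306448 for Kcne1l, chr1:189402224-189402523 for Kcnk2, the outermost of 4 listed starts, and chr11:100759729-100760028 for Kcnh4, all on the minus strand. The Kcne1l promoter held 69.7% G and C and 1 GC box, which begins 169 bases before the start. The Kcnh4 promoter held 68.7% G and C and 1 GC box, which begins 32 bases before the start. The Kcnk2 promoter held 43% G and C, no GC box and 2 matches to the PU.1 core.

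The same motifs were counted in the 75 promoters of the 52 genes and in all 32851 promoters of the RefSeq table, on both strands. The GC box occurred in 49.3% of the former and 35.7% of the latter, and the PU.1 core in 30.7% and 28.3%. The TATA box, searched as TATAAA, occurred in 5.33% and 13.6%. For the AP-1 site, searched as TGANTCA, the shares were 4.0% and 7.81%. The STAT site TTCNNNGAA occurred in 10.7% and 8.3%, and the cAMP response element TGACGTCA in 0% and 1.79%. Median G and C content was 59.7% in the potassium channel promoters and 52.7% in all. A match is a description of the letters and not a binding site.

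The Kcnq genes encode subunits of the M-current, a slow current that restrains repetitive firing. Kcnq5 fell from 86.4 ± 9.39 to 62.4 ± 6.21 CPM without overlap (log2 fold change -0.46 ± 0.09, limma adjusted p = 0.00196). Kcnq3 fell from 57.6 ± 4.25 to 48 ± 5.47 CPM with overlapping groups (log2 fold change -0.26 ± 0.09, limma adjusted p = 0.0374). The Kcnq3 call was lost on omission of library A, C or D of the no-delay group or A or B of the 1-week group (limma adjusted p from 0.0576 to 0.116, within a range of 0.00438 to 0.116 for all alternatives). It was also lost with library weights (limma adjusted p = 0.0600).

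The Kcnh genes encode channels of the eag, erg and elk groups. Of 6 genes 4 fell, and the 2 elk genes had the largest falls. Kcnh4 stood at 23.7, 21.7, 23.5 and 19.6 CPM without delay and at 10.5, 9.9, 11.9 and 14.3 CPM at 1 week. Kcnh3, the other elk gene, stood at 61.1, 61.5, 69.8 and 61.8 CPM without delay and at 35.8, 28.9, 37 and 49.5 CPM at 1 week. Neither gene had overlapping groups, and library D was the highest of the 1-week libraries in both. Kcnh4 fell from 22.1 ± 1.9 to 11.7 ± 1.97 CPM (log2 fold change -0.88 ± 0.12, limma adjusted p = 1.1e-04). Kcnh3 fell from 63.5 ± 4.18 to 37.8 ± 8.59 CPM (log2 fold change -0.76 ± 0.13, limma adjusted p = 5.9e-04). Kcnh2, an erg gene better known from heart, was low in this tissue, at 8.2, 8.69, 7.03 and 7.09 CPM without delay and 5.92, 3.4, 5.21 and 6.6 CPM at 1 week. It fell without overlap (log2 fold change -0.50 ± 0.16, limma adjusted p = 0.0309). The Kcnh2 call was lost on omission of library A or B of the no-delay group or B or C of the 1-week group (limma adjusted p from 0.0599 to 0.0828, within a range of 0.00209 to 0.0828 for all alternatives).

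The eag gene Kcnh1 fell from 84.6 ± 15.9 to 65.3 ± 5.1 CPM with overlapping groups (log2 fold change -0.35 ± 0.12, limma adjusted p = 0.0311). The Kcnh1 call was lost on omission of library B or C of the no-delay group or A, B or C of the 1-week group (limma adjusted p from 0.0569 to 0.0907, within a range of 0.00171 to 0.0907 for all alternatives). The erg gene Kcnh7, the most abundant of the subfamily, had means of 170.3 ± 2.79 and 170.4 ± 4.18 CPM and was not called. The 95% interval of its log2 fold change was -0.12 to 0.12. The eag gene Kcnh5 was not called either (from 78.4 to 84.7 CPM). The share of Kcnh7 in the summed CPM of the subfamily was 39.99% ± 2.34 without delay and 45.5% ± 2.81 at 1 week, and that of Kcnh5 was 18.4% ± 1.05 and 22.6% ± 1.72.

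**Figure D2:**
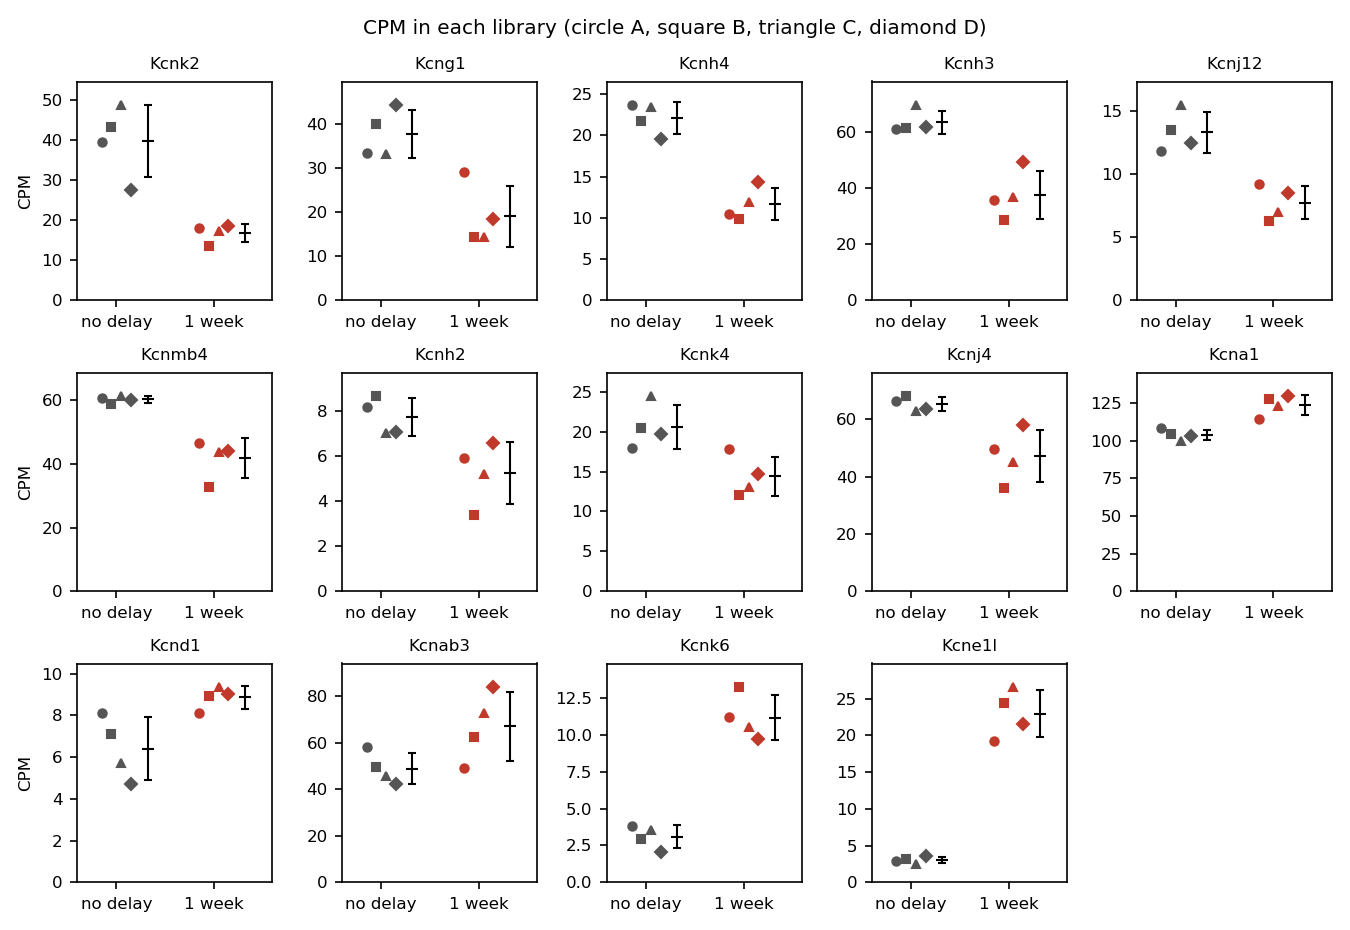
CPM (y axis, from 0) in each of the 4 no-delay and 4 1-week libraries (points, with a shape for each of libraries A to D) of the 14 called genes described library by library, with the mean and SD of each group beside the points. The groups overlap for Kcnab3 and Kcnd1 and for none of the other 12.

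Kcna genes encode low-threshold channels of axons and their initial segments, and their called members moved in opposite directions. Kcna1 rose, Kcna3 and Kcna4 fell and 3 genes were not called, and the subfamily summed to 329 to 361 CPM without delay and 342 to 358 CPM at 1 week. Kcna1 stood at 108, 104, 99.8 and 103 CPM without delay and at 115, 127, 123 and 129.6 CPM at 1 week. All 1-week values were higher than all no-delay values. The mean rose from 104 ± 3.41 to 124 ± 6.66 CPM (log2 fold change 0.25 ± 0.06, limma adjusted p = 0.00753), and the call was kept in all 17 alternatives. Kcna2, whose product assembles with that of Kcna1, was not called (from 114 to 108 CPM, log2 fold change -0.07, limma adjusted p = 0.463). The ratio of Kcna1 to Kcna2 was 0.864 to 0.994 without delay and 1.08 to 1.19 at 1 week, without overlap.

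Kcna3, also known from T cells and microglia, fell from 31.8 ± 3.68 to 22.8 ± 2.94 CPM without overlap (log2 fold change -0.47 ± 0.11, limma adjusted p = 0.00507). Kcna4, an inactivating subunit, fell from 38.1 ± 1.67 to 32 ± 2.49 CPM, also without overlap (log2 fold change -0.25 ± 0.08, limma adjusted p = 0.0262). The Kcna4 call was lost on omission of library B or C of the no-delay group or B of the 1-week group (limma adjusted p from 0.0646 to 0.0834, within a range of 0.00248 to 0.0834 for all alternatives). Kcna6 was not called (from 61.2 to 63.9 CPM). Kcna5 lay near the filter, at 1.25 to 1.54 CPM without delay and 0.30 to 0.97 CPM at 1 week. It passed the filter through its no-delay libraries alone, so its difference is a description only. Kcna5, Kcna1 and Kcna6 are neighbours on chromosome 6 in the reference annotation, and of these 3 only Kcna1 was called. In 5 of 16 alternatives Kcna5 was called lower, namely TMM, median-of-ratios and quantile scaling, edgeR and no filter, likewise a description only.

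The Kcnab genes encode beta subunits that bind Kcna channels from inside the cell. Kcnab2 was the most abundant potassium channel gene, at 307, 266, 269 and 210.1 CPM without delay and 283, 285, 291 and 254 CPM at 1 week. The no-delay values spread more widely, the groups overlapped, and the gene was not called (log2 fold change 0.09, limma adjusted p = 0.500). Kcnab3 stood at 58.1, 49.7, 45.7 and 42.2 CPM without delay and 49.3, 62.6, 72.9 and 84 CPM at 1 week. Library A was the highest without delay and the lowest at 1 week, and the groups overlapped. The mean rose from 48.9 ± 6.83 to 67.2 ± 14.8 CPM (log2 fold change 0.43 ± 0.14, limma adjusted p = 0.0329). The Kcnab3 call was lost on omission of library B, C or D of the no-delay group or B, C or D of the 1-week group (limma adjusted p from 0.0521 to 0.0885, within a range of 0.00425 to 0.0885 for all alternatives). It was also lost under TMM and median-of-ratios scaling (limma adjusted p from 0.0531 to 0.0550). Kcnab1 was not called (from 42.3 to 40.3 CPM). Over the 7 genes listed as the Kv1 complex of axons (Kcna1, Kcna2, Kcna4, Kcna6 and the Kcnab genes), 2 rose, 1 fell and 4 were not called, with a median log2 fold change of 0.06.

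Kcnc genes encode the Kv3 channels with which fast-spiking neurons repolarize. Kcnc1 fell from 112 ± 7.55 to 82.2 ± 16.7 CPM (log2 fold change -0.46 ± 0.11, limma adjusted p = 0.00729). Its 1-week values were 72.2, 69.9, 80.4 and 106 CPM, of which that of library D lay within the no-delay range of 103 to 120.2 CPM. Kcnc2 fell from 84.3 ± 4.94 to 65.1 ± 3.64 CPM without overlap (log2 fold change -0.37 ± 0.07, limma adjusted p = 0.00118). Kcnc4 fell from 20.5 ± 0.994 to 15.7 ± 1.65 CPM, likewise without overlap (log2 fold change -0.37 ± 0.09, limma adjusted p = 0.00868). Beside these falls Pvalb, the calcium buffer of many fast-spiking interneurons, rose from 53.6 to 94.6 CPM (log2 fold change 0.83, limma adjusted p = 6.8e-04). The 7 interneuron markers summed to 791 to 869 CPM without delay and 721 to 822 CPM at 1 week, with 1 called higher and 1 lower.

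Kv2 channels carry a delayed current in the cell bodies and dendrites of neurons. Kcnb2 had 3 reads in all without delay and 8 at 1 week and was not tested. Since the assignment of tags to genes is not given, few reads need not mean little Kcnb2 RNA. The modifier subunits form no channel alone and change the behaviour of Kv2 channels. Of 9 listed modifier genes present, 8 were tested: 4 fell, 1 rose and 3 were not called. Kcng1 stood at 33.4, 40.1, 33.3 and 44.4 CPM without delay and at 29.1, 14.3, 14.4 and 18.6 CPM at 1 week. Library A was the highest at 1 week but lay below the lowest no-delay value. The mean fell from 37.8 ± 5.44 to 19.1 ± 6.97 CPM (log2 fold change -0.997 ± 0.19, limma adjusted p = 0.00133).

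Kcnv1, the most abundant modifier gene, fell from 109 ± 5.65 to 81 ± 10.1 CPM without overlap (log2 fold change -0.43 ± 0.08, limma adjusted p = 0.00182). Kcns2 fell from 27.1 ± 3.38 to 20.4 ± 0.898 CPM, also without overlap (log2 fold change -0.39 ± 0.10, limma adjusted p = 0.00734). Kcnf1 fell from 51.8 ± 3.24 to 41.2 ± 6.74 CPM with overlapping groups (log2 fold change -0.34 ± 0.10, limma adjusted p = 0.0208). The Kcnf1 call was lost on omission of library B of the no-delay group or B or C of the 1-week group (limma adjusted p from 0.0573 to 0.0639, within a range of 0.00124 to 0.0639 for all alternatives). Kcng4 lay near the filter and rose from 2.08 ± 1.23 to 3.81 ± 0.372 CPM (log2 fold change 0.74 ± 0.27, limma adjusted p = 0.0450). Its call was lost in 13 of 16 alternatives, among them edgeR, DESeq2 and a pseudocount of 0.25. The Kcng4 call was lost on omission of library A or C of the no-delay group or A, B, C or D of the 1-week group (limma adjusted p from 0.0629 to 0.0907, within a range of 0.0132 to 0.371 for all alternatives). Kcns1 (from 10.3 to 10.7 CPM), Kcns3 (from 9.56 to 9.71 CPM) and Kcng3 (from 6.35 to 4.41 CPM) were not called. Kcng3 was called lower in 7 of 17 alternatives, among them omission of library A of the no-delay group or A of the 1-week group (limma adjusted p from 0.0244 to 0.0357). Kcng2 lay below the filter, with 28 and 34 reads in all.

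Kcnd genes encode the A-type channels of dendrites, and Kcnip genes encode calcium-binding proteins that bring these to the membrane. Kcnd2 fell from 60.8 ± 3.26 to 50.3 ± 3.86 CPM (log2 fold change -0.27 ± 0.07, limma adjusted p = 0.0126). Kcnd3 fell from 40.02 ± 1.99 to 31.3 ± 2.32 CPM (log2 fold change -0.35 ± 0.08, limma adjusted p = 0.00422). Neither had overlapping groups. Kcnd1, which was less abundant, stood at 8.09, 7.13, 5.74 and 4.69 CPM without delay and 8.09, 8.94, 9.36 and 9.04 CPM at 1 week. Its groups met at 8.09 CPM, the value of library A in both. The mean rose from 6.41 ± 1.5 to 8.86 ± 0.542 CPM (log2 fold change 0.43 ± 0.15, limma adjusted p = 0.0352), but the call was lost in 11 of 17 alternatives, among them edgeR, DESeq2 and TMM scaling. The Kcnd1 call was lost on omission of library C or D of the no-delay group or B, C or D of the 1-week group (limma adjusted p from 0.0611 to 0.0940, within a range of 0.0129 to 0.559 for all alternatives).

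Of the Kcnip genes, Kcnip2 fell from 98.7 ± 3.25 to 73 ± 13.3 CPM without overlap (log2 fold change -0.45 ± 0.11, limma adjusted p = 0.00603). Kcnip1 fell from 23.6 ± 1.79 to 19.6 ± 1.42 CPM, also without overlap (log2 fold change -0.26 ± 0.09, limma adjusted p = 0.0403). The Kcnip1 call was lost on omission of library A, B or C of the no-delay group or A, B or C of the 1-week group (limma adjusted p from 0.0550 to 0.121, within a range of 0.00529 to 0.121 for all alternatives). This gene overlaps Kcnmb1 on the opposite strand. Kcnip3 (from 117 to 110.4 CPM) and Kcnip4 (from 113 to 101 CPM) were not called. Kcnip4 was called lower in 4 of 17 alternatives, namely TMM and median-of-ratios scaling, edgeR and DESeq2 (adjusted p from 0.0162 to 0.0290, within a range of 0.0162 to 0.271 for all alternatives). Over the 7 Kcnd and Kcnip genes, 4 fell, 1 rose and 2 were not called.

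Of the Kcnj genes, which encode inward rectifiers, 9 of 10 were tested: 3 fell and 6 were not called. The strong rectifiers hold cells near their resting potential, and 2 of 4 fell. Kcnj12 stood at 11.8, 13.4, 15.4 and 12.4 CPM without delay and at 9.18, 6.28, 7.0 and 8.47 CPM at 1 week. Kcnj4 stood at 66.4, 68.1, 62.8 and 63.6 CPM without delay and at 49.6, 36.1, 45.1 and 58.1 CPM at 1 week. Neither had overlapping groups, and library B was the lowest at 1 week in both. Kcnj12 fell from 13.3 ± 1.6 to 7.73 ± 1.33 CPM (log2 fold change -0.71 ± 0.13, limma adjusted p = 0.00114). Kcnj4 fell from 65.2 ± 2.49 to 47.2 ± 9.17 CPM (log2 fold change -0.48 ± 0.12, limma adjusted p = 0.00657). Kcnj2, known from microglia and endothelium as well as neurons, was not called (from 12.9 to 14.7 CPM, log2 fold change 0.18, limma adjusted p = 0.350). Kcnj14 lay near the filter and was not called (from 0.662 to 1.41 CPM), but was called higher without a filter and on omission of library B of the no-delay group or B of the 1-week group (limma adjusted p from 0.0351 to 0.0450, within a range of 0.0351 to 0.717 for all alternatives).

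The G protein-gated rectifiers, which many inhibitory transmitter receptors open, had no called member. Kcnj3 (from 96.9 to 88.3 CPM), Kcnj6 (from 113 to 107 CPM) and Kcnj9 (from 77.3 to 75.3 CPM) had limma adjusted p from 0.316 to 0.679. The 95% interval of the log2 fold change was -0.33 to 0.08 for Kcnj3, -0.23 to 0.08 for Kcnj6 and -0.18 to 0.11 for Kcnj9. Kcnj11, the pore of the ATP-sensitive channel of neurons, fell from 24.2 ± 0.409 to 17.9 ± 3.6 CPM without overlap (log2 fold change -0.43 ± 0.12, limma adjusted p = 0.0134). Abcc8, which encodes the sulfonylurea receptor of that channel, was not called (from 28.3 to 25.7 CPM). Kcnj16, which encodes an astrocyte subunit, stood at 21.7, 23.1, 28.9 and 21.3 CPM without delay and 23.9, 25.9, 34.1 and 36.5 CPM at 1 week. The groups overlapped and the gene was not called (log2 fold change 0.32, limma adjusted p = 0.0945), but it was called higher on omission of library C of the no-delay group or A of the 1-week group (limma adjusted p from 0.0363 to 0.0429). Its partner Kcnj10, not among the 74 genes, rose from 63.9 to 167 CPM.

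Kcnk genes encode the K2P background channels; 1 rose, 2 fell and 6 were not called. Kcnk2, whose channel opens with stretch, warmth and polyunsaturated lipids, stood at 39.5, 43.2, 48.7 and 27.6 CPM without delay and at 18.1, 13.5, 17.2 and 18.5 CPM at 1 week. The groups did not overlap, although no-delay library D was well below the other 3. The mean fell from 39.8 ± 8.94 to 16.8 ± 2.28 CPM (log2 fold change -1.17 ± 0.16, limma adjusted p = 9.1e-05), the largest fall of any potassium channel gene tested. The ratio of Kcnk2 to Kcnk1 was 0.308 to 0.498 without delay and 0.144 to 0.203 at 1 week, without overlap. Kcnk4, which encodes a relative of that channel, stood at 17.9, 20.4, 24.4 and 19.7 CPM without delay and at 17.8, 12.1, 13 and 14.7 CPM at 1 week. Its highest 1-week value, in library A, lay just below the lowest no-delay value. Kcnk4 fell from 20.6 ± 2.76 to 14.4 ± 2.48 CPM (log2 fold change -0.50 ± 0.13, limma adjusted p = 0.00935). Kcnk10, of the same group, was not called (from 16 to 13.4 CPM). Kcnk1, the most abundant K2P gene and one of neurons and astrocytes, was not called (from 97.2 to 92.4 CPM), with a 95% interval of -0.20 to 0.06 for its log2 fold change. Kcnk3 (from 6.33 to 5.63 CPM), Kcnk9 (from 2.12 to 1.31 CPM) and Kcnk12 (from 20.3 to 18 CPM) were not called. Kcnk9 was called lower in 5 of 16 alternatives, namely TMM, median-of-ratios and quantile scaling, no filter and omission of library C of the 1-week group (limma adjusted p from 0.00190 to 0.0430, within a range of 0.00190 to 0.141 for all alternatives). Kcnk3, Kcnk10 and Kcnk12 were called lower under quantile normalization alone (limma adjusted p = 0.0313, 0.0105 and 0.0199, where the highest values for all alternatives were 0.916, 0.293 and 0.364).

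Kcnk6, which encodes a K2P channel of macrophages and other cells, stood at 3.79, 2.93, 3.56 and 2.08 CPM without delay and at 11.2, 13.2, 10.5 and 9.69 CPM at 1 week. Every 1-week value was more than 2 times the highest no-delay value. The mean rose from 3.09 ± 0.765 to 11.2 ± 1.52 CPM, a ratio of 3.61 (log2 fold change 1.58 ± 0.16, limma adjusted p = 8.4e-06). Summed microglia markers had a ratio of 4.12, and their part in the rise of Kcnk6 was not tested. Kcnk13, the K2P gene best known from microglia, stood at 6.15, 4.3, 4.06 and 4.17 CPM without delay and at 2.66, 3.92, 3.36 and 3.99 CPM at 1 week. All 1-week values lay below all no-delay values, and the gene was not called (log2 fold change -0.33, limma adjusted p = 0.115) except under quantile normalization, where it was lower (limma adjusted p = 0.00348, up to 0.286 in other alternatives). Kcnn4, a calcium-activated channel gene of immune cells, had 1 read in all without delay and 4 at 1 week, so no difference was detectable at this depth. Of 8 genes listed as known in glia or immune cells 7 were tested: Kcnk6 rose, Kcna3 and Kcnk2 fell, and Kcnj2, Kcnj16, Kcnk1 and Kcnk13 were not called.

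**Figure D3:**
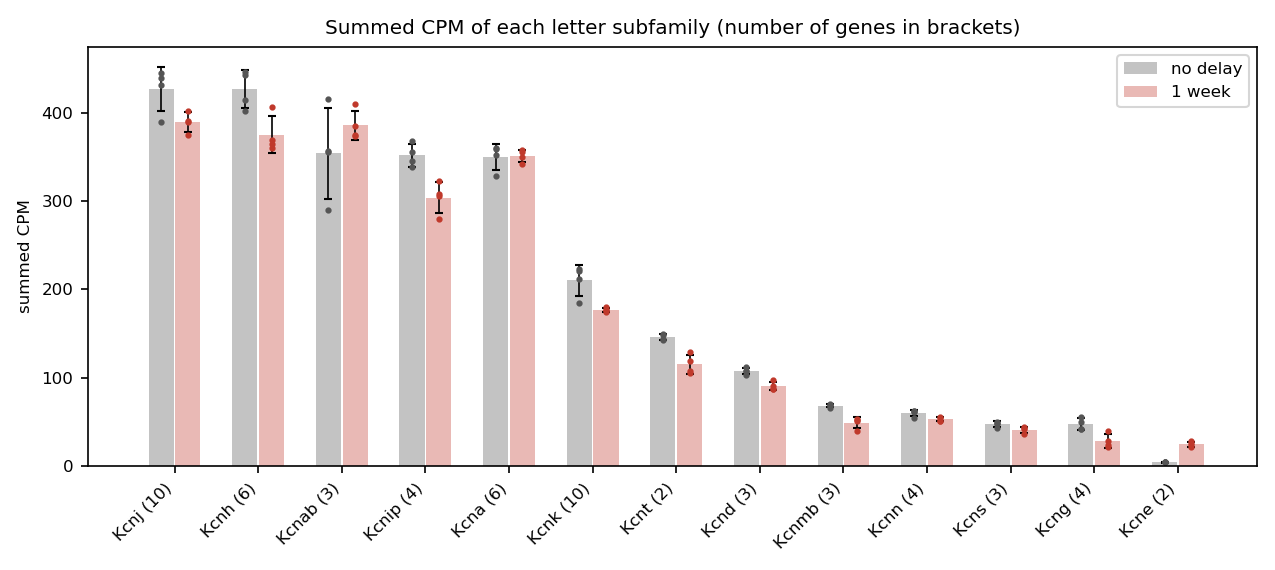
Summed CPM (y axis, from 0) of 13 letter subfamilies, with the mean (bar), SD (line) and single libraries (points) of the 4 no-delay and 4 1-week libraries. Mean Kcnh sums were 427 and 375 CPM, whereas mean Kcna sums were 350.3 and 351 CPM.

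Of the 7 tested genes listed for channels opened by calcium or sodium, 4 fell and 3 were not called. Kcnmb4, the neuronal beta subunit of the large-conductance calcium-activated channel, stood at 60.5, 58.9, 61.3 and 60.01 CPM without delay and at 46.6, 32.7, 43.9 and 44.1 CPM at 1 week. The no-delay values were close together and the 1-week values all lay below them. The mean fell from 60.2 ± 1.01 to 41.8 ± 6.18 CPM (log2 fold change -0.53 ± 0.10, limma adjusted p = 0.00123). Kcnma1, the pore that Kcnmb4 binds, stood at 0.72 to 1.46 CPM without delay and 0.48 to 1.43 CPM at 1 week and did not pass the filter. How tags were assigned to genes is not given, so this low count need not mean little Kcnma1 RNA. Kcnmb1 did not pass it either, and Kcnmb2 was not called (from 7.07 to 6.07 CPM) except under quantile normalization, where it was lower (limma adjusted p = 0.00792, up to 0.530 in other alternatives).

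The sodium-activated channel genes both fell without overlap. Kcnt1 fell from 87.5 ± 4.04 to 65.4 ± 11.1 CPM (log2 fold change -0.43 ± 0.10, limma adjusted p = 0.00558). Kcnt2 fell from 58.5 ± 1.53 to 49.6 ± 2.6 CPM (log2 fold change -0.23 ± 0.07, limma adjusted p = 0.0134). Among the small-conductance calcium-activated channel genes, Kcnn2 fell from 45.8 ± 2.89 to 38.9 ± 1.75 CPM without overlap (log2 fold change -0.23 ± 0.07, limma adjusted p = 0.0264). The Kcnn2 call was lost on omission of library A, B or D of the no-delay group or A or C of the 1-week group (limma adjusted p from 0.0557 to 0.0729, within a range of 0.00347 to 0.0729 for all alternatives). Kcnn1 (from 12 to 11.2 CPM) and Kcnn3 (from 1.95 to 2.52 CPM) were not called. Kcnu1, best known from sperm, was not called (from 4.11 to 3.65 CPM). Under quantile normalization alone, Kcnn1 and Kcnu1 were called lower (limma adjusted p = 0.0236 and 0.0102, up to 0.730 and 0.798 in other alternatives). Kcnk5 and Kcnj13, with 1 and 4 reads in all without delay and 11 and 1 at 1 week, complete the 7 genes that were not tested.

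The largest change of any potassium channel gene tested was the rise of Kcne1l, which encodes a small auxiliary subunit of the KCNE group. It stood at 2.97, 3.2, 2.57 and 3.54 CPM without delay and at 19.2, 24.4, 26.6 and 21.6 CPM at 1 week. Every 1-week value was more than 5 times the highest no-delay value. The mean rose from 3.07 ± 0.407 to 22.9 ± 3.22 CPM, a ratio of 7.47 (log2 fold change 2.55 ± 0.13, limma adjusted p = 5.9e-08). The 95% interval of the log2 fold change was 2.27 to 2.83, and over the 17 alternatives the value of Kcne1l ran from 2.29 to 2.84. The part of the higher glial markers in this rise was not tested. Kcne4, the other KCNE gene in the table, lay near the filter and was not called (from 0.955 to 1.54 CPM).

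Among subfamilies with 3 or more tested genes, median log2 fold changes ran from -0.45 for Kcng, -0.43 for Kcnh, -0.37 for Kcnc and -0.36 for Kcnq to 0.04 for Kcns and 0.09 for Kcnab. Between these lay Kcnd at -0.27, Kcnk at -0.24, Kcnip at -0.21, Kcna at -0.16, Kcnn at -0.10 and Kcnj at -0.08. Several medians rest on few genes. That of Kcng is the value of Kcng3, which was not called and lay between the falling Kcng1 and the rising Kcng4. That of Kcns is the value of Kcns1, which was not called, while Kcns2 was called lower. The medians were not tested against each other, and several moved with the processing. Over the 17 alternatives the median ran from -0.82 to -0.21 for Kcng, -0.48 to -0.17 for Kcnk, -0.23 to -0.07 for Kcna, -0.26 to -0.02 for Kcnn and -0.15 to -0.04 for Kcnj. Under TMM, median-of-ratios and quantile scaling each kept its sign except that of Kcns, which was -0.02, -0.03 and -0.24. By class, 19 of 32 tested voltage-gated pore and modifier subunits fell and 3 rose. Of 9 inward rectifiers 3 fell and 0 rose, and of 9 K2P genes 2 fell and 1 rose. Of 6 tested pore subunits of the Kcnn, Kcnt and Kcnu genes 3 fell and 0 rose. Of 11 auxiliary subunits 3 fell and 2 rose. The shares called lower were 59.4%, 33.3%, 22.2%, 50% and 27.3% in that order, beside 13.4% of all genes tested. The share called higher was at most 18.2%, in the auxiliary subunits, beside 23.4%. The classes were not tested against the other genes.

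In order of level without delay, Kcnab2 led, with all its libraries above those of every other potassium channel gene. Of the other genes described here, Kcnh7 had the highest mean. Kcnip3, Kcna2, Kcnj6, Kcnip4, Kcnc1 and Kcnv1 came next, with means from 117 down to 109 CPM and ranges that overlap between neighbours. At 1 week Kcnab2 and Kcnh7 led without overlap, and Kcna1 came after them at 124 CPM, in a range that overlaps that of Kcnip3.

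**Figure D4:**
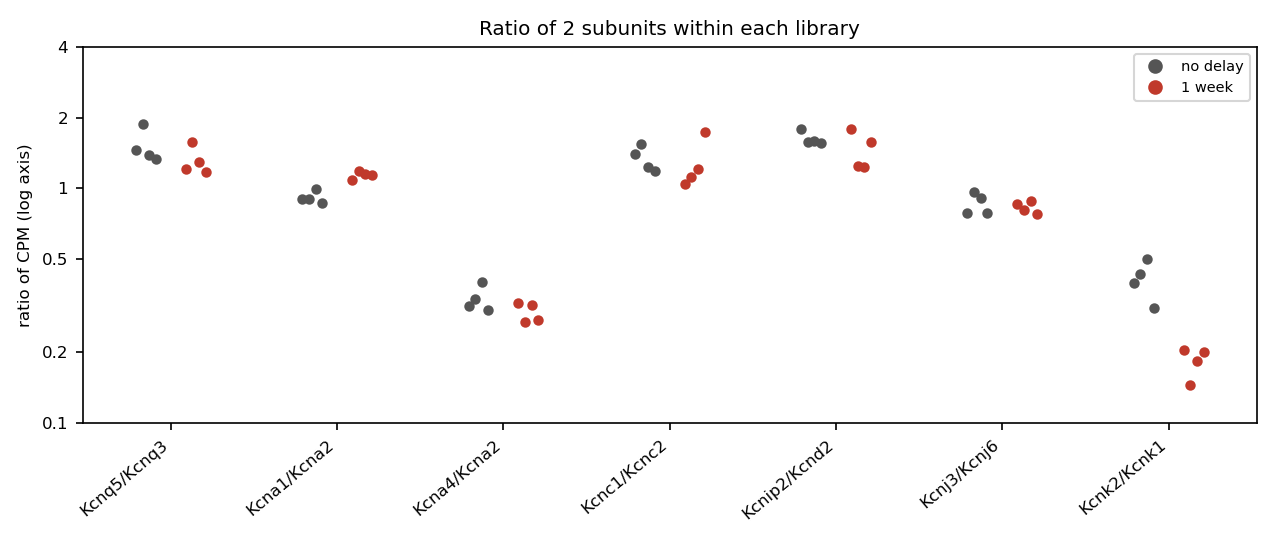
Ratio of the CPM of 2 potassium channel genes within each library (y axis, log scale) for 7 pairs of subunits or related channels, in the 4 no-delay and 4 1-week libraries. The ranges do not overlap for Kcna1/Kcna2 and Kcnk2/Kcnk1 and overlap for the other 5 pairs.

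Ratios within a library, which no scaling factor can change, were chosen with the values of single genes known, so no test was made on them. The ratio of Kcnj3 to Kcnj6, which assemble in G protein-gated channels, was 0.78 to 0.96 without delay and 0.775 to 0.878 at 1 week. For Kcnip2 to Kcnd2 it was 1.56 to 1.78 without delay and 1.23 to 1.79 at 1 week, with 1-week libraries B and C below the no-delay range. For Kcnc1 to Kcnc2 it was 1.73 in 1-week library D, the highest of the 8 values, against 1.04 to 1.2 in the other 1-week libraries.

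Proteins that bind, cluster or traffic potassium channels were read from a list of 24 genes, of which 20 were tested. Of these 5 fell, 1 rose and 14 were not called, with a median log2 fold change of -0.11. The shares were 25% lower and 5.0% higher, beside 13.4% and 23.4% of all genes tested. Amigo1, an auxiliary subunit of Kv2 channels, fell from 53.6 to 32.2 CPM (log2 fold change -0.72 ± 0.13, limma adjusted p = 0.00114). Vapb, an endoplasmic reticulum protein that Kv2 channels bind, fell from 99.9 to 71.8 CPM (log2 fold change -0.48 ± 0.11, limma adjusted p = 0.00626). Snx27, a sorting protein of G protein-gated channels, fell from 131 to 89.6 CPM (log2 fold change -0.55 ± 0.08, limma adjusted p = 1.2e-04). Dlg4, a postsynaptic scaffold that clusters channels, fell from 368 to 290.5 CPM, and Lgi1, a secreted protein of the Kv1 complex, fell from 140.3 to 117 CPM. Abcc9, a sulfonylurea receptor of vascular cells, rose from 5.17 to 7.83 CPM (log2 fold change 0.50 ± 0.13, limma adjusted p = 0.00847). The Kv4 partners Dpp6 (from 149 to 136 CPM) and Dpp10 (from 98.2 to 102 CPM) were not called. Among sodium, calcium and HCN channel genes (symbols starting with Scn, Cacn or Hcn), 11 of 31 tested fell and 1 rose, with a median of -0.20. These were 35.5% lower and 3.23% higher, beside the same 13.4% and 23.4%. The difference from the potassium channel genes was not tested.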

How the data were processed

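Total RNA was made into CAGE libraries and read from 1 end for 75 nt, per the labels' protocols. BWA 0.5.9 and the build mm9 are named in the submitters' processing notes. How tags were assigned to genes, and whether strand was used, is not given in the sources used here, so reads may be shared by 9 potassium channel genes that overlap another gene of the table on the opposite strand, among them Kcnab2, Kcnh1, Kcnh3, Kcnh7, Kcnip1, Kcnj13, Kcnmb1 and Kcnn1. Kcnip4 and Kcnq5 overlap another gene on the same strand. The authors deposited a CPM value for each gene in 8 columns, whose names show the group and a library tag but no replicate number. No label says that each sample came from its own animal, so the p-values reflect the spread among these samples, which may be technical.

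From these values log2(CPM + 1) was computed and tested with limma 3.58.1 in R 4.3.3 (trended variance, 2-sided, Benjamini-Hochberg over all genes tested). All 74 symbols matched the reference annotation used for overlaps. Whole reads were recovered from the CPM steps (100% of values whole within 0.1 reads) for edgeR 4.0.16 and DESeq2 1.42.0. The fits were tested on simulated reads. Results of some genes are not reported here. All other called genes are named, and library values are given for up to 10 called genes in each direction with a mean of 5 CPM or more. Alternatives were a pseudocount of 0.25, no filter, a filter of 5 CPM, TMM, median-of-ratios and quantile scaling, library weights, edgeR, DESeq2 and omission of each library, 17 in all; a block on the library tag was added after seeing the data. The genes, lists and rules were chosen with earlier results of these data known.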

Additional observations from a re-analysis of the deposited data

Results flagged for a closer look

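In 10 of the 134 groups of 4 libraries (67 genes, 2 groups each), 1 library stood apart from the other 3 by more than Dixon's 95% critical value, where chance gives about 1 in 20 groups, or 6.7. Without delay, library C was the highest for Kcnh3 (69.80 CPM against 61.1, 61.5 and 61.8 CPM), Kcnh5 (87.52 against 76.3, 75.6 and 74.2 CPM) and Kcnip3 (128.21 against 113, 113 and 113 CPM). No-delay library D was the highest for Kcnc4 (21.98 against 20.1, 19.8 and 20.1 CPM) and the lowest for Kcnip2 (93.88 against 101, 99.95 and 100.4 CPM) and Kcnt2 (56.26 against 59.3, 59.1 and 59.5 CPM). No-delay library A was the highest for Kcnk13 (6.15 against 4.3, 4.06 and 4.17 CPM).

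At 1 week, library A was the highest for Kcnf1 (51.21 against 38.8, 37.6 and 37 CPM), within the no-delay range of 48.5 to 55.1 CPM. Library B was the lowest for Kcna5 (0.30 against 0.97, 0.86 and 0.90 CPM) and Kcng4 (3.25 against 3.99, 4.0 and 3.99 CPM). For comparison, 3 reads are 0.214 to 0.362 CPM.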

How the results depend on the processing

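The columns carry no replicate numbers, but 4 library tags recur in both groups. Deviations from the group means correlated by -0.02, -0.03, 0.04 and 0.18 between the same-tag libraries A to D, so the tag was not taken to pair the samples; 2 of 4 no-delay libraries were closest to another tag. With a replicate block on the tag, added after seeing the data, 32 of 36 called genes were also called (not Kcnab3, Kcnd1, Kcng4 and Kcnip1), and 3 genes were called higher and 30 lower; over all genes 3484 were higher and 1986 lower. In the 17 other alternatives, 26 of the 36 kept their call wherever they were tested (23 of 30 lower; Kcna1, Kcne1l and Kcnk6 of 6 higher), 10 lost it at least once and 0 changed direction. The number called higher was 3 under TMM and median-of-ratios scaling and 3 to 6 with 1 library omitted; the number called lower was 24 to 31 with 1 omitted. Over all genes, omitting 1 library gave 2841 to 3448 higher and 1429 to 2142 lower, and quantile normalization gave 3211 lower. Quantile normalization moved the medians of Kcng (-0.82), Kcnk (-0.48), Kcnn (-0.26) and Kcns (-0.24); the cause was not tested. With 1 library omitted the median over all 67 genes was -0.27 to -0.21, that of Kcnab -0.01 to 0.17 and that of Kcns -0.12 to 0.08. The 7 untested genes did not pass the filter; without it all 74 were fitted, and none of the 7 was called (limma adjusted p from 0.105 to 0.972).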

Other observations

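Kcnj13, an inward rectifier gene best known from choroid plexus and retinal pigment epithelium, was detected without delay in library B only, with 4 reads (0.37 CPM), and had 1 read in all at 1 week. The same no-delay library held Ttr, the transthyretin gene that choroid plexus expresses at a high level, at 104 CPM. Ttr stood at 0, 0.20 and 0 CPM in the other no-delay libraries and at 0 in all 1-week libraries. The other ependyma and choroid plexus genes listed and present were not confined to that library. Kl stood at 0.20, 1.28, 1.58 and 0.52 CPM without delay, highest in library C. Foxj1 stood at 1.02, 1.37, 0.59 and 0.10 CPM without delay, highest in library B, and was called higher at 1 week (mean from 0.77 to 3.2 CPM).

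Calls are given here by the level of the gene. Of the 17 tested potassium channel genes with a no-delay mean under 10 CPM, 4 were called higher and 1 lower (median log2 fold change 0.04), where 38.2% of all genes tested at that level were higher and 2.93% lower. Of the 21 genes from 10 to under 50 CPM, 1 was called higher and 13 lower (-0.26), where the shares of all genes were 21.5% and 11.5%. Of the 29 genes at 50 CPM or more, 1 was called higher and 16 lower (-0.27), where they were 12% and 25.4%. The bins use the no-delay mean, which is also 1 side of each fold change. Low bins thereby favour higher calls and high bins lower calls, so no link between level and direction is read from them. These bins were set after the values were seen, and the difference between them was not tested.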
